A study of Mus musculus with 31 samples.

Results

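In 3 of 8 stem-like medulloblastoma cultures, lines 91, 92 and 9, the genes of chromosome 6 read higher as a whole chromosome, and these 3 raised lines are set here beside the other 5, lines 74, 49, 68, 77 and 83. The lines were chosen from these same values, by the median log2 difference of their chromosome 6 genes from neural stem cells, so everything said of chromosome 6 in the lines is a description without a test. The 8 lines make up 8 of the 31 arrays of the series. Each line came from 1 medulloblastoma, a tumour of the cerebellum, that arose in a C57BL/6 mouse heterozygous for Ptch with wild-type p53, and 1 array was run per line. The labels name neither the Ptch allele nor the age of the tumour-bearing mice. The lines had been grown as free-floating neurospheres with EGF and FGF2 as growth factors. Tissue of each of the 8 tumours was measured too, with the same genotype and strain, and was not used to choose the lines. The reference was 9 neurosphere cultures of neural stem cells from C57BL/6 mice at postnatal day 7, 3 each from the subventricular zone, the IV ventricle region and the cerebellar white matter. A further 6 arrays, 3 technical replicates each of 2 tumour cultures that are Ptch het and p53 het, serve only as a second set of cultures.

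Ptch encodes the receptor that holds back Smoothened, the membrane protein that passes on the Sonic hedgehog (Shh) signal. With too little Ptch, Smoothened signals through the Gli transcription factors, and granule neuron precursors of the cerebellum keep dividing. Cells carry autosomes in pairs, and tumour cells in culture often hold whole chromosomes in excess. The arrays measured RNA, so the number of chromosomes per cell was not measured here. Chromosome 6 of the mouse carries Smo itself, and with it Braf, Ezh2, Ccnd2, Foxm1 and the Hoxa cluster.

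All 31 arrays had medians between 3.17 and 3.32 on the log2 intensity scale, and 18194 genes were measured with 1 probe set each. The stem cell labels were borne out by high levels of neural stem genes in all 8 lines: Sox2 read 9.60 to 10.41, Nes 8.45 to 9.48 and Fabp7 12.14 to 12.70. A defining gene of the granule lineage and a direct Shh target, Atoh1 and Gli1, were low there. Atoh1 read 1.98 to 2.77 in the lines, against tissue means of 8.04 for the 3 raised tumours and 7.82 for the other 5. Gli1 read 1.86 to 2.56 in the lines. Ptch1 read 5.72 to 7.75 in the raised lines and 6.05 to 7.48 in the others, but since the deleted part of the gene is not named, this does not check the genotype. Ptprc, which marks blood-derived cells, read 0.95 to 1.25 in every line.

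An identifier in the labels carries a date mark, and all 3 raised lines share theirs with line 74 only, while lines 49, 68, 77 and 83 share a different mark. Tissues 91, 92, 9 and 74 carry the mark of the raised lines. Tissues 49 and 77 share a different mark, and tissues 68 and 83 share a further one. What the mark records is not stated. A difference between the raised lines and the other 5 therefore cannot be told apart from a difference between marks except through line 74. Where the difference of a named gene outside chromosome 6 from line 74 alone was more than 1.5 times smaller, it is given too.

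Chromosome levels were read over the 9097 genes at or above the median of all genes by their mean on the 31 arrays, here called brighter genes, of which 454 lie on chromosome 6. The median difference of these 454 genes from the mean of the 9 neural stem cell arrays was 0.47 in line 91, 0.50 in line 92 and 0.45 in line 9. It was -0.03 in line 74, -0.11 in line 49, -0.03 in line 68, 0.06 in line 77 and -0.07 in line 83. Line 9 was the member just inside the choice and line 77 the line just outside it. In the raised lines 87.4%, 87.7% and 86.6% of the 454 genes (lines 91, 92 and 9) lay above the stem cell mean, and in the other 5 lines 40.3% to 57.3%. Line 74, with the date mark of the raised lines, read like the 4 lines of the other mark. The 9 stem cell arrays themselves lay between -0.06 and 0.06, and the 6 arrays of p53 heterozygous tumour cultures between -0.12 and -0.02.

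**Figure D1:**
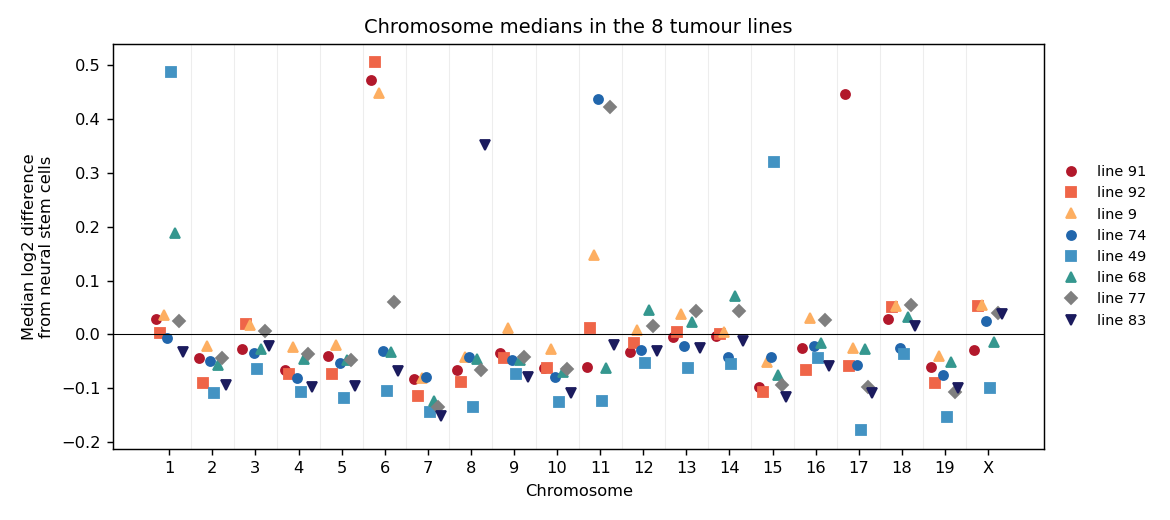
Median log2 difference from the mean of 9 neural stem cell arrays (vertical axis) over the brighter genes of each chromosome (horizontal axis), 1 point per tumour line. On chromosome 6 lines 91, 92 and 9 lie at 0.45 to 0.50 and the other 5 lines at -0.11 to 0.06; elsewhere the points furthest from 0 are line 49 on chromosomes 1 and 15, line 91 on chromosome 17, line 83 on chromosome 8 and lines 74 and 77 on chromosome 11.

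Chromosome 6 was the only chromosome whose median stood above 0.3 in all 3 raised lines. Line 92 had no other shifted chromosome, with a largest size of 0.12 elsewhere. In line 91 the median of chromosome 17 was 0.45, close to its own chromosome 6. Line 9 had 0.15 on chromosome 11, the chromosome whose median was 0.44 in line 74 and 0.42 in line 77. Each of the other 5 lines had a chromosome of its own above the rest. It was chromosome 11 in lines 74 and 77, chromosomes 1 (0.49) and 15 (0.32) in line 49, chromosome 1 (0.19) in line 68 and chromosome 8 (0.35) in line 83. The comparison thus sets 3 lines with a shared shift beside 5 lines that carry other shifts, not beside lines without any.

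Along the chromosome the shift was present in every block, but it was not even. The 454 genes were cut into 9 consecutive blocks in gene order. Block medians ran from 0.35 to 0.62 in line 91, from 0.40 to 0.63 in line 92 and from 0.29 to 0.61 in line 9. In the other 5 lines they ran from -0.28 to 0.13, so no block of any raised line reached down to any block of another line. The chromosome 17 blocks of line 91 lay between 0.19 and 0.60, and the chromosome 11 blocks of line 9 between 0.08 and 0.24.

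**Figure D2:**
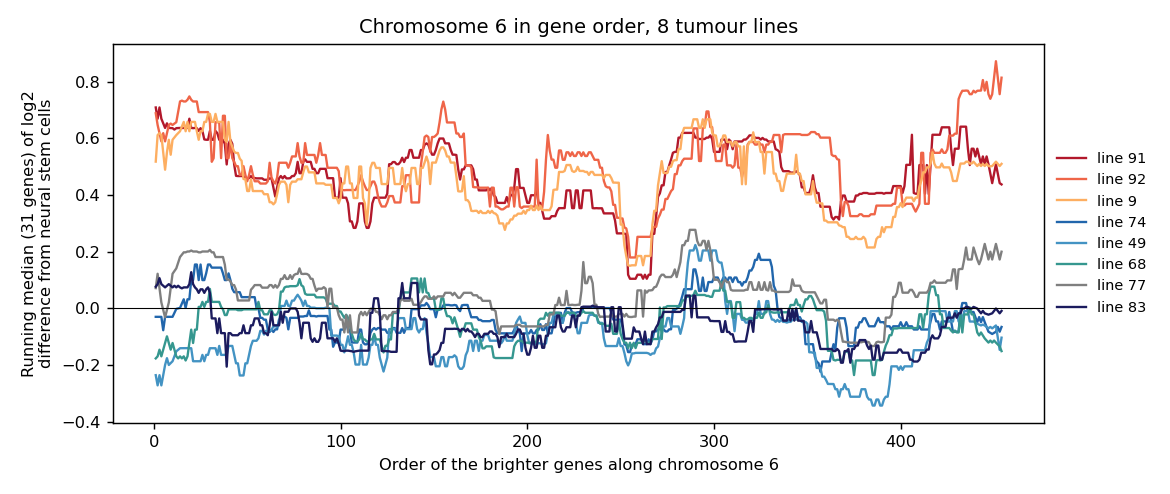
Running median over 31 genes of the log2 difference from neural stem cells (vertical axis) against the order of the 454 brighter genes along chromosome 6 (horizontal axis), 1 curve per line. The curves of lines 91, 92 and 9 rise and dip together above those of the other 5 lines, and are lowest around Chchd6. The curves of the other 5 lines run between -0.34 and 0.28, and all of them lie below 0 at Gapdh.

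Gene by gene, the mean of the 3 raised lines less the mean of the other 5 had a median of 0.53 over the 454 brighter genes, with quartiles of 0.38 and 0.70. Of these genes 426 read higher in the raised lines and 28 lower. In 285 of 454 (62.8%) every raised line read above every other line, and in 0 (0%) every raised line read below. Over the 8626 brighter genes of the other chromosomes the median was 0.01, and the groups stood apart in this way for 4.45% of genes upward and 3.15% downward. With all 993 measured genes of chromosome 6 the share was 30.5% upward and 2.01% downward, against 2.86% and 4.29% of the 17038 genes elsewhere. These chromosome 6 shares describe the choice of the lines. Nothing is read from them.

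The difference depended on how strongly a gene was expressed. Split by mean level into 5 groups of 198 or 199 genes, the dimmest group had a median difference of -0.05 and the next -0.07, against -0.06 and -0.09 for genes of the same level elsewhere. The middle group had 0.07, the fourth 0.57 and the brightest 0.53. Genes listed as unused by neural cells showed the same floor. Among 40 of them on chromosome 6, such as taste receptors, natural killer receptors and digestive enzymes, 1 (A2m) was among the brighter genes, 0 stood apart upward, 1 (Klrc1) downward, and the median was -0.07. Nanog, a gene of pluripotent cells, read 1.05 to 1.11 in the raised lines and 0.83 to 1.13 in the others.

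Among genes of Shh signalling and cell division, 8 of 14 on chromosome 6 stood apart upward, near the 62.8% of its brighter genes, with a median of 0.54. Smo read 7.40, 7.82 and 7.40 in lines 91, 92 and 9, and 6.53, 7.40, 6.64, 6.92 and 7.19 in lines 74, 49, 68, 77 and 83. Line 49 lay just under the lowest raised line. Set beside stem cells at 7.46 ± 0.22 (SD, n = 9), the raised lines were close at 7.54 ± 0.24 (SD, n = 3) and the other lines lower at 6.94 ± 0.36 (SD, n = 5). Foxm1, a transcription factor of the mitotic programme, read 7.78, 7.85 and 7.53 against 7.20, 6.09, 6.79, 7.02 and 7.13. Cdkn1b, an inhibitor of cyclin-dependent kinases, read 8.12, 8.30 and 7.92 against 7.84, 6.93, 7.35, 7.32 and 7.61. So an activator and a brake of the cell cycle both stood higher, by 0.87 and 0.70. Ccnd2, the D-type cyclin of granule precursors, did not follow: its mean was 11.05 ± 0.12 (SD, n = 3) against 10.99 ± 0.26 (SD, n = 5). Rad52, of recombination repair, stood apart at 4.95 against 4.14, while Fancd2, of crosslink repair, overlapped at 5.90 against 5.80.

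Of 13 receptor and Ras pathway genes, 6 of them brighter ones, 5 stood apart upward and 1 downward. Over all chromosome 6 genes the shares were 30.5% and 2.01%. The median of the list was 0.07, with 7 of 13 positive. The kinase Braf read 6.71, 6.90 and 6.66 against 6.20, 6.21, 6.21, 6.36 and 6.14, a difference of 0.53. Rassf8, of the Ras association domain family, differed by 1.04. Ptprz1, a receptor phosphatase of radial glia and the brightest gene of this group, differed by 0.47, with 11.17, 11.12 and 11.11 against 10.77, 11.09, 10.79, 10.39 and 10.28. Tgfa, a ligand of the EGF receptor, read 6.59, 5.70 and 6.67, and line 92 overlapped with line 74 at 5.76. The receptor tyrosine kinases Met and Ret were dim, with group means of 1.49 and 1.93 for Met and 2.95 and 3.02 for Ret.

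Chromatin and transcription regulators stood apart upward in 5 of 20 and downward in 1, near the 30.5% and 2.01% of all chromosome 6 genes. Ezh2, the methyltransferase of Polycomb repressive complex 2, read 8.89, 9.06 and 8.86 against 8.34, 8.45, 8.46, 8.67 and 8.77. Sox5, a regulator of neural and glial progenitors, read 7.93, 8.01 and 8.03 against 7.74, 6.64, 6.83, 7.12 and 7.11. Foxp1 differed by 0.64 and Chd4, the remodelling ATPase of the NuRD complex, by 0.36. Gata2, the gene of the list that stood apart downward, was dim, with means of 2.72 and 3.08.

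Of 32 general metabolic and protein-handling genes, 29 of them brighter ones, 25 stood apart upward, 31 had a positive difference, and the median was 0.49. That count is near the 71.9% apart upward in the brightest of the 5 level groups of chromosome 6. Gapdh, a glycolytic enzyme often used to normalise expression, read 12.35, 12.53 and 12.26 against 11.74 to 12.03 in the other 5. Any scaling of these lines to Gapdh would carry its difference of 0.48 along. Sec61a1, the channel through which proteins enter the endoplasmic reticulum, read 9.97, 9.87 and 9.65 against 9.18, 9.22, 9.13, 9.29 and 9.25. Ldhb, a subunit of lactate dehydrogenase, differed by 1.14.

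The largest difference on the chromosome belonged to Hoxa3, a homeobox gene of the hindbrain, at 2.16. It read 6.62, 6.40 and 6.16 in lines 91, 92 and 9 and 2.55, 4.92, 4.49, 3.24 and 5.96 in lines 74, 49, 68, 77 and 83, so the other lines were spread and line 83 came close. In stem cells it ranged from 1.81 to 4.75. Hoxa5 also stood apart, by 0.77, but Hoxa7 and Hoxa9 did not and differed by -0.39 and -0.22. Of the 10 genes of this list 2 were among the brighter genes. The groups stood apart in 2 of 10, upward in both, beside 30.5% of all chromosome 6 genes. Among the 10 largest differences were also Adamts9, an extracellular protease (1.47), Loxl3, a lysyl oxidase (1.33), Pcgf1, a Polycomb ring finger protein (1.27), and Camk1, a calmodulin-dependent kinase (1.25), whose groups did not overlap. A2m (1.99), Hk2 (1.53), Cntn4 (1.44), Hoxa4 (1.36) and Fkbp14 (1.35) overlapped.

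At the other end, the genes of chromosome 6 furthest below were mostly low in the raised lines and high in 1 or a few of the others. Usp18, an interferon-induced protease, differed by -1.31. It read 1.47 to 1.82 in the raised lines and 7.73 in line 77 alone, with 1.47 to 2.01 in the other 4. Pdzrn3, a ubiquitin ligase, differed by -1.23 and read 6.07 in line 49 and 1.95 in line 74. Of the 10 lowest, only Akr1b8 stood apart, at 2.38 against 3.00. Genes of neurons and glia, 17 of 35 of them brighter ones, had 22 positive differences and a median of 0.12. Of these 35 genes 6 stood apart upward and 1 downward, beside 30.5% and 2.01% of all chromosome 6 genes. Ptn, a growth factor of glia, was among those apart upward (11.02 against 10.59). Of 11 imprinted genes, 5 of them brighter ones, 1 stood apart upward, the coat subunit Copg2. Calcr, a dim gene at 0.89 against 1.25, stood apart downward. The same shares of all chromosome 6 genes apply beside these counts.

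Multi-subunit complexes allow a gene on chromosome 6 to be set beside partners from other chromosomes. Mcm2, of the replicative MCM helicase, read 8.86, 8.72 and 8.77 against 8.34, 8.57, 8.45, 8.44 and 8.64, a difference of 0.30. Its 5 partners had differences from -0.34 to -0.15, all of them negative, with a median of -0.27. Cct7, of the CCT chaperonin that folds actin and tubulin, differed by 0.23 with overlapping groups, and its 7 partners lay between -0.30 and -0.03. In Polycomb repressive complex 2, Ezh2 and Aebp2 differed by 0.40 and 0.67 and the 8 partners had a median of -0.04. Chd4 differed by 0.36 and 12 NuRD partners had a median of 0.02. Arpc4, of the actin nucleator Arp2/3, differed by 1.05 and its 5 partners had a median of 0.04. Copg1 and Copg2 of the COPI vesicle coat differed by 0.70 and 0.62, and 7 partners had a median of -0.06. In limma's test 0 partners of any of the 6 complexes were called. Mcm5, Cct2, Cct3, Cct5 and Copz1 stood apart downward, and Gatad2b of NuRD and Arpc1a of Arp2/3 upward. Over the brighter genes outside chromosome 6 the shares were 3.15% downward and 4.45% upward.

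**Figure D3:**
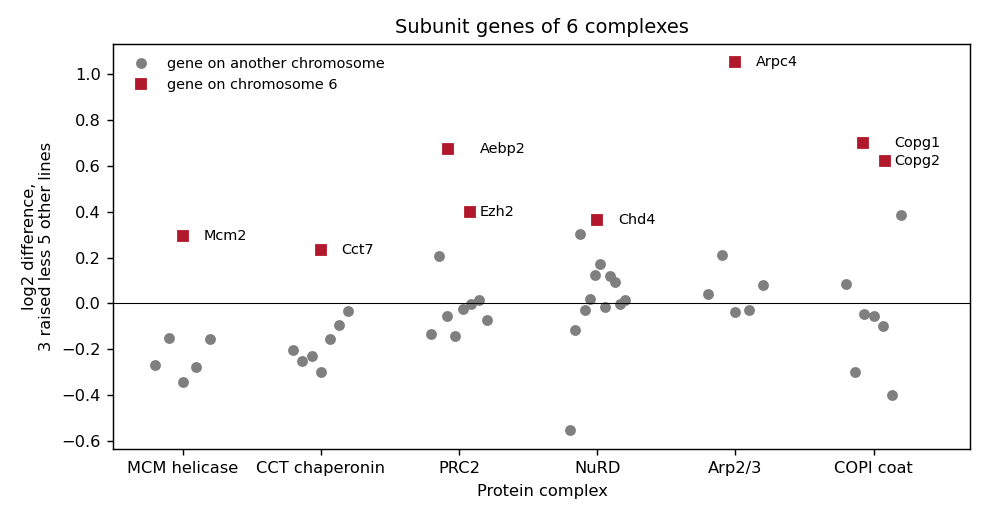
Log2 difference, mean of the 3 raised lines less mean of the 5 other lines (vertical axis), for subunit genes of 6 protein complexes (horizontal axis), 1 point per gene, squares for chromosome 6. The chromosome 6 subunits lie at 0.23 to 1.05 and most partners lie around or below 0.

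The matched tissues bear on the same chromosome without having been used to choose the lines. Tissue holds stroma and blood vessels besides tumour cells, and in such bulk samples fewer cells of a type and less RNA per cell cannot be told apart. Each tissue was read against the mean of the 8 tissues. Chromosome 6 stood at 0.22 in tissue 91, 0.24 in tissue 92 and -0.15 in tissue 9. In the others it stood at -0.29 in tissue 74, -0.22 in tissue 49, 0.14 in tissue 68, 0.04 in tissue 77 and -0.01 in tissue 83. Tissues 92 and 91 were thus the 2 highest, tissue 9 was among the 3 lowest, and the groups overlapped. The means were 0.10 ± 0.22 (SD, n = 3) and -0.07 ± 0.18 (SD, n = 5). The difference of 0.17 did not pass an exact two-sided permutation test (p = 0.286, where 3 against 5 can give no less than 0.0357). Without tissue 9 the difference was 0.29 (exact two-sided permutation p = 0.0952), and without tissue 92 it was 0.10 (p = 0.571 in the same exact test). Taking all genes, dim ones included, it was 0.02 (exact two-sided permutation p = 0.75), a setting added after seeing the data. Against tissue 74 alone, the only other tissue with their date mark, it was 0.40, a value with no test.

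Chromosome 6 lay beyond 0.1 in either direction in 6 of the 8 tissues. Of the 152 medians of the other 19 chromosomes in the 8 tissues, 148 had a size of at most 0.08. The exceptions were chromosome 17 in tissue 91 (0.37), chromosome 14 in tissue 49 (0.17), chromosome 8 in tissue 9 (0.12) and chromosome 17 in tissue 83 (-0.11). Line 91 and its tissue shared both of their shifts, on chromosomes 6 and 17. The shift of line 9 on chromosome 6 had no counterpart in its tissue, whose blocks ran from -0.19 to -0.10. Blocks of tissue 91 lay at 0.10 to 0.31, of tissue 92 at 0.17 to 0.30 and of tissue 68 at 0.03 to 0.24. Those of tissue 74 lay at -0.32 to -0.25 and of tissue 49 at -0.29 to -0.10. In each of these tissues the sign was the same in every block. Set against neural stem cells instead, chromosome 6 read 0.31, 0.34 and -0.02 in tissues 91, 92 and 9, and -0.12, -0.08, 0.25, 0.17 and 0.10 in tissues 74, 49, 68, 77 and 83.

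**Figure D4:**
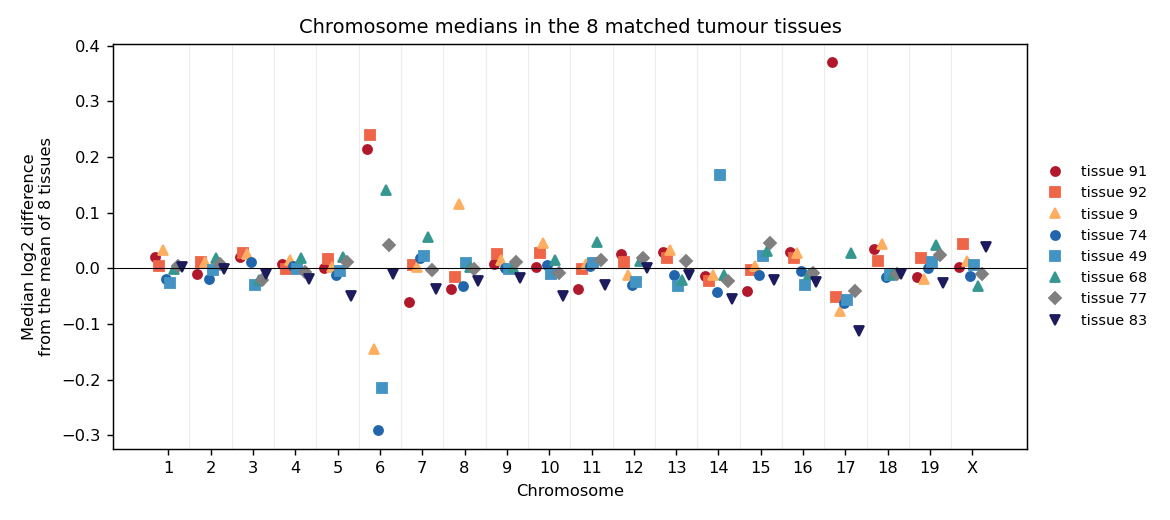
Median log2 difference from the mean of the 8 tumour tissues (vertical axis) over the brighter genes of each chromosome (horizontal axis), 1 point per tissue. Chromosome 6 spans -0.29 to 0.24, with tissues 91 and 92 at the top and tissues 74, 49 and 9 at the bottom; tissue 91 also stands at 0.37 on chromosome 17.

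Single genes of chromosome 6 differed in how they read in the tissues. Cdkn1b read 9.10, 9.18 and 8.91 in tissues 91, 92 and 9 and 8.65, 8.27, 8.39, 8.27 and 8.60 in tissues 74, 49, 68, 77 and 83, without overlap. Tra2a, a splicing regulator, read 8.70, 8.82 and 8.39 against 8.17, 7.57, 8.06, 7.81 and 7.56, also without overlap. Smo read 6.87, 6.87 and 6.45 against 6.44, 6.38, 7.02, 6.63 and 6.47, with tissue 68 the highest of all. Gapdh overlapped at means of 11.65 and 11.72. Cdkn1b and Tra2a were picked from the lists after their tissue values were seen, and tissue 9 was high in both although its chromosome 6 median was -0.15.

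Outside chromosome 6, few genes passed an adjusted test of the raised lines against the others. The groups stood apart upward in 487 of 17038 genes (2.86%) and downward in 731 (4.29%). Few calls from so small a number of lines do not show that few genes differed. In limma's moderated test, with Benjamini-Hochberg adjustment over all 18194 genes and a threshold of 0.05, 3 of 17038 genes were called (0.0176%). All 3 were lower (0.0176%) and 0 were higher (0%), where the smallest adjusted p was 0.0688. At an unadjusted p under 0.05 limma gave 810 higher and 887 lower genes. The adjustment decided these calls, and the 18194 genes include those of chromosome 6, from which the lines were chosen. Taken over the genes outside chromosome 6 alone, 0 were called. With all 19 cultures in 1 fit, which takes the spread from stem cells and p53 heterozygous tumours too, 108 genes were called, 62 higher (0.364%) and 46 lower (0.27%), among them all 3. A fit with the date mark as a block called 0, and so did the 3 raised lines against line 74 alone. Leaving out line 91, 49, 68 or 83 left 0 calls, and leaving out line 74, 92 or 77 left 1. Without line 9 there were 3 calls, 2 higher and 1 lower.

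Gng2, on chromosome 14, encodes a gamma subunit of heterotrimeric G proteins. It read 2.48, 4.10 and 2.94 in lines 91, 92 and 9, and 5.61, 6.16, 6.05, 5.39 and 5.95 in lines 74, 49, 68, 77 and 83. It fell by 2.65 ± 0.34 (SE of the limma fit, adjusted p = 0.039 over all genes, chromosome 6 included). Stem cells, at 6.21 ± 0.19 (SD, n = 9), read like the other lines. Myh10, on chromosome 11, encodes the heavy chain of nonmuscle myosin IIB, which moves nuclei and cell bodies in developing brain. It read 6.55, 7.07 and 6.93 against 8.57, 8.71, 8.83, 7.83 and 8.81, with line 77 nearest to the raised lines. The change was -1.70 ± 0.24 (SE of the limma fit, adjusted p = 0.0474), with stem cells at 8.67 ± 0.20 (SD, n = 9). Hdgfl3, on chromosome 7, encodes a relative of hepatoma-derived growth factor and read 4.98, 5.21 and 5.47 against 6.33, 6.35, 6.66, 6.14 and 6.22. Its change was -1.12 ± 0.15 (SE of the limma fit, adjusted p = 0.039).

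Line 74 lay with the other lines in all 3 genes. Beside it alone the differences were -2.43, -1.72 and -1.11 for Gng2, Myh10 and Hdgfl3, near those of the whole comparison, though no test could call them with the mark as a block (limma, adjusted p = 0.632 to 0.633). In the matched tissues the group means of all 3 genes lay within 1 SD of each other. Gng2 read 8.34 ± 0.14 (SD, n = 3) against 8.46 ± 0.20 (SD, n = 5), Myh10 9.07 against 9.11 and Hdgfl3 7.50 against 7.52.

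**Figure D5:**
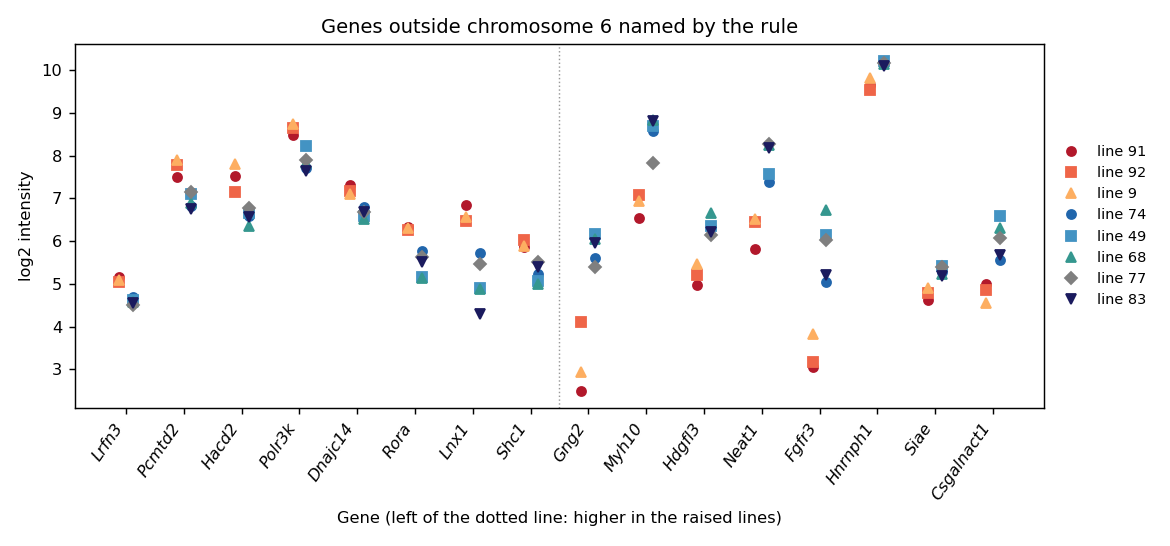
Log2 intensity (vertical axis) of 16 genes outside chromosome 6 (horizontal axis), 1 point per line, the 3 raised lines to the left of the 5 others for each gene. Gng2, Myh10 and Hdgfl3 are the 3 genes called by limma with the adjustment over all genes, chromosome 6 included. The other 13 missed the threshold although their groups do not overlap.

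The 13 further genes taken by the same rule missed the threshold, with adjusted p of 0.0613 to 0.103 in limma's test, and are given as values. Among the lower ones, Fgfr3, a receptor for fibroblast growth factors, read 3.06, 3.17 and 3.83 against 5.03, 6.14, 6.74, 6.03 and 5.22. Stem cells read 6.80 ± 1.02 (SD, n = 9). Neat1, the RNA scaffold of nuclear paraspeckles, read 5.83, 6.45 and 6.51 against 7.38, 7.58, 8.26, 8.26 and 8.17. Csgalnact1, of chondroitin sulfate synthesis, differed by -1.24 (-0.75 from line 74 alone), Siae, a sialic acid esterase, by -0.54 and Hnrnph1, a splicing factor, by -0.50. On the upper side, Lnx1, a ubiquitin ligase that acts on Numb, read 6.84, 6.47 and 6.55 against 5.71, 4.89, 4.87, 5.47 and 4.30, a difference of 1.57, or 0.91 from line 74 alone. Rora, a nuclear receptor, differed by 0.85 (0.53 from line 74 alone), Pcmtd2 by 0.79, Polr3k, a subunit of RNA polymerase III, by 0.76, Shc1, an adaptor between receptors and Ras, by 0.69 and Lrfn3, a synaptic adhesion protein, by 0.51.

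A pair of these genes stood apart in the tissues as well, a point noticed after their values were seen and given without a test. Hacd2, an enzyme of very long chain fatty acids, read 7.51, 7.14 and 7.80 in lines 91, 92 and 9 and 6.34 to 6.77 in the others. In tissues 91, 92 and 9 it read 6.40, 6.15 and 6.28, and in the other 5 tissues 5.87 to 5.98. Dnajc14, a cochaperone, read 7.32, 7.18 and 7.09 against 6.53 to 6.81 in the lines, and 7.08, 7.10 and 7.29 against 6.54 to 6.84 in the tissues. Tissue 74, with the date mark of the raised tumours, was the highest of the other 5 for both, at 5.98 and 6.84.

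By chromosome, genes outside chromosome 6 stood apart upward most often on chromosome 17, in 48 of 437 brighter genes and with a median difference of 0.22, where line 91 was shifted. On chromosome 11, shifted in lines 74 and 77, 3 of 757 brighter genes (0.396%) stood apart upward, with a median of -0.09. The remaining chromosomes had medians between -0.10 and 0.06.

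Pathways were followed through gene lists, leaving out their chromosome 6 members. Of 543 listed genes on other chromosomes, 0 were called by limma, 22 were higher and 42 lower at an unadjusted p under 0.05 (over all genes outside chromosome 6, 4.75% and 5.21%), and 4 were called with all 19 cultures in 1 fit. In 18 the groups stood apart upward and in 37 downward, where 2.86% and 4.29% of all genes outside chromosome 6 did. The lists are described below by counts and medians, beside a share of 52.4% positive among the brighter genes outside chromosome 6 and a median of -0.04 for all genes outside chromosome 6.

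Shh signalling had a median of 0.01 over 22 genes, 11 of them positive, although Smo on chromosome 6 stood higher. Evc, of the primary cilium through which Smoothened signals, was the gene that stood apart, by 0.47, although line 74 read 6.42 beside 6.43 in line 91. Ras-MAPK components and feedback genes had positive differences in 20 of 23, with a median of 0.19. The mean of the list over the 23 genes, relative to its mean in the 8 lines, was 0.21, 0.21 and 0.07 in lines 91, 92 and 9, and -0.29 to 0.01 in the others, with no overlap. Spry4, a feedback inhibitor of receptor tyrosine kinase signalling, read 8.89, 8.82 and 8.42 against 7.82, 7.47, 7.63, 8.10 and 8.26 (limma, adjusted p = 0.16). Dusp5, a phosphatase that acts on ERK, differed by 0.81 over the 8 lines but by -0.087 from line 74, which thus read as high as the raised lines it shares a date mark with. Line 74 was the highest of the other lines after line 77 in the list mean too, at 0.00 against 0.01.

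Of 32 DNA replication genes 2 had a positive difference and 7 stood apart downward, beside 3.15% of brighter genes outside chromosome 6, and the median was -0.18. None was called by limma, and 0 were higher and 6 lower at an unadjusted p under 0.05. Gins1, of the replicative helicase, read 6.50, 6.43 and 6.56 against 6.81, 6.67, 6.80, 7.05 and 7.04 (limma, adjusted p = 0.272). Cdt1, which loads the MCM helicase, differed by -0.32 (-0.19 from line 74 alone) and Prim1, of the DNA primase, by -0.25. The list mean was -0.07, -0.08 and -0.18 in the raised lines, and -0.03 to 0.23 in the others. Mitosis genes did not share this, with a median of 0.03 and 0 of 26 apart. The p53 targets had 5 of 26 positive and a median of -0.23, with overlap in all 26; the extremes of the list mean, -0.58 and 0.37, both belonged to other lines, 83 and 77.

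For hypoxia and glycolysis genes 1 culture decided the value. All 19 had a positive difference, with a median of 0.41, yet without line 92 5 of 19 did and the median was -0.14. The list mean was 1.70 in line 92, -0.33 in line 91 and -0.41 in line 9. Vegfa, the angiogenic factor induced by low oxygen, read 8.98 in line 92, 6.71 and 6.38 in lines 91 and 9, and 5.83 to 6.84 in the others. The mitophagy receptor Bnip3 read 9.45 in line 92, 5.40 and 5.43 in lines 91 and 9, and 7.30 in line 49, the next highest. On chromosome 6 the glucose transporter Slc2a3 and hexokinase Hk2 showed the same culture, with 9.54 and 8.77 in line 92 and at most 7.00 and 5.89 in lines 91 and 9. Part of the difference of these 2 genes therefore belongs to line 92 and not to the 3 lines together.

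Interferon genes were decided by 1 line of the other group. Their median was -0.48, and -0.11 without line 77, whose list mean was 2.13 against -0.50 to -0.08 in every other line. Ifit1 read 7.09 in line 77 and 1.48 to 2.56 in the other 7.

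Cell type lists were read for what else the cultures could hold. Microglial genes had a mean level of 1.96 to 2.06 in the raised lines and 2.02 to 2.28 in the others. Of 21, 2 were among the brighter genes and 3 (Csf1r, Trem2 and Ctss) stood apart downward, beside 4.29% of all genes outside chromosome 6. Ptprc and Aif1 read at most 1.64 in any line. Endothelial, mural and fibroblast genes had a mean level of 3.03 to 3.08 and 2.91 to 3.32, with Pecam1 at 1.52 to 1.61 in the raised lines and 1.65 to 1.93 in the others. The part of such cells in any result was not tested. Neuronal genes had 5 of 24 positive and a median of -0.28. Their list mean was -0.41, -0.33 and -0.28 in the raised lines and -0.38 in line 83, against 0.26 to 0.46 in lines 74, 49, 68 and 77. The neurofilament gene Nefl read 1.55, 2.24 and 1.42 against 4.70, 5.29, 2.19, 6.14 and 2.95 (limma, adjusted p = 0.306), so line 68 lay inside the range of the raised lines and line 83 above it. The part of differentiating cells in these levels was not tested.

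Neural stem cell and radial glial markers overlapped in most cases, with 2 of 23 apart upward and 2 downward. Over all genes outside chromosome 6 the shares were 2.86% upward and 4.29% downward, and they apply beside each count of this paragraph. Hes1, a Notch effector, read 7.16, 7.99 and 7.27 against 7.09, 6.05, 6.29, 6.75 and 6.73, and differed by 0.89, but by 0.39 from line 74 alone. Tnc, an extracellular matrix protein of the stem cell niche, read 8.27, 7.75 and 8.57 against at least 8.62 in the other lines, and differed by -1.33, or -0.88 from line 74 alone. Id1, a target of BMP signalling, differed by -1.59 with line 68 inside the range of the raised lines. Of 18 neural crest and Schwann cell genes, 2 stood apart upward and 4 downward. Pax3, a regulator of neural crest and dorsal neural tube, read 3.36, 3.81 and 3.48 against 5.42, 5.46, 5.06, 5.17 and 4.11 (limma, adjusted p = 0.106), and Sox8 differed by 1.38, but by 0.57 from line 74 alone. Of 29 Wnt pathway genes 3 stood apart each way. The ligand Wnt7b read 4.97, 4.78 and 5.55 against 6.39, 7.63, 7.37, 6.75 and 5.72 (limma, adjusted p = 0.178), and Axin2, a feedback gene of the pathway, differed by 0.59 in the opposite direction, and by 0.26 from line 74 alone. The Wnt co-receptor Lrp6, on chromosome 6, stood apart by 0.71.

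No gene of the other lists was called by limma. Cyclins and cyclin-dependent kinases had a median of 0.01 with 0 of 18 apart, sterol synthesis 0.02 with 0 of 23, and cytosolic ribosomal proteins -0.03 with 1 of 26. Notch pathway genes had -0.05 over 24 genes, with Notch2, Jag1 and Hes1 apart upward and Mfng downward. Over all genes outside chromosome 6 the shares were 2.86% and 4.29%. TGF-beta and BMP genes had -0.10 over 31 genes and protein folding genes -0.19 over 24. Astrocyte, oligodendrocyte lineage and granule neuron genes had medians of -0.05, -0.09 and -0.16.

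The sex-linked genes differed between lines in each group. Xist, the RNA of the inactive X chromosome, read 3.28, 3.79 and 9.29 in lines 91, 92 and 9. Lines 92 and 68 had Y-linked signal, with Eif2s3y at 6.57 and 6.33, and line 91 had neither, with Eif2s3y at 0.90. Sex was thus not shared within the raised lines, and without X and Y genes the count of calls stayed at 3.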

How the data were processed

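Per the labels, 31 arrays held biotin-labelled cRNA made from total RNA. The authors deposited 1 log2 intensity for each probe set and array, normalised with RMA per the submitters' processing notes. The RMA version is not given in the sources used here. RMA scales all arrays to 1 distribution, so a chromosome-wide shift can displace other genes slightly. The 34958 of 45101 probe sets with 1 gene symbol were used, 1 per gene with the highest mean over all 31 arrays, which gave 18194 genes. Chromosomes and gene order came from the RefSeq annotation of assembly GRCm38.p6 by Entrez gene ID. In all, 163 genes were left without a chromosome, which includes any placed on several.

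Lines were compared in limma 3.58.1 under R 4.3.3, by lmFit with eBayes on 8 lines (two-sided), tested on simulated data, with Benjamini-Hochberg adjustment over all genes. Tissue levels used an exact permutation test (scipy 1.17.1). Nothing says that lines came from separate litters, so p-values measure the spread between these samples, whose number limits the precision. "Stood apart" means that the 3 and the 5 values do not overlap.

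The lines and gene lists were chosen with earlier results of these data known. Named genes outside chromosome 6 were the called genes without overlap, filled to 8 per direction by smallest p with a higher group mean of at least 5. For each list described they were the members of smallest p, at most 4 in the direction of its median and at most 2 without overlap in the opposite direction. Genes given as defining markers, or because 1 line decided a list, were named after their values were seen. Some listed genes were not analysed here. Alternatives covered scaling, dim genes, probe sets, the prior, the samples fitted, date marks and each line left out.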

Additional observations from a re-analysis of the deposited data

Results flagged for a closer look

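In 7 of 76 groups of 5 samples tested, 1 value lay far from the rest of its group by Dixon's criterion, which chance alone meets in about 1 of 20 groups. All 7 values belonged to the 5 other lines and none to a tissue. Myh10, called lower in the raised lines with the adjustment over all genes, read 7.83 in line 77, below the 8.57 to 8.83 of the other 4. Gadd45a, a stress-induced growth arrest gene of chromosome 6, read 6.30 in line 77, above the 3.94 to 4.58 of the other 4 and above all 3 raised lines. Line 49 was low for 3 chromosome 6 genes: the condensin subunit Ncapd2 at 7.94, the prohibitin Phb2 at 8.54 and the signalosome subunit Cops7a at 6.82. Ldhb read 8.39 in line 68 and the ubiquitin-conjugating enzyme Ube2h 6.53 in line 83, both below the other 4.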

How the results depend on the processing

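The median difference of the 454 brighter chromosome 6 genes, 0.53, was 0.13 over all 993 and stayed between 0.48 and 0.57 under 14 alternatives, and between 0.51 and 0.56 with 1 line left out. The count of its genes that stood apart upward, 303 of 993, stayed between 285 and 342, and was 313 to 342 with 1 line left out; against line 74 alone it was 561, since 1 line is easier to exceed than 5. The mean level of the raised lines, 0.47, was 0.13 with dim genes included, 0.42 with probe sets averaged and 0.54 after centring on genes outside chromosome 6. The tissue difference was positive under 14 alternatives (0.02 to 0.40; 0.10 to 0.29 with 1 tissue left out) and passed its test in none of the 13 where one could be run. Calls outside chromosome 6, 3 in all, were 5 with arrays centred on their medians, 1 centred on genes outside chromosome 6, 6 among brighter genes, 1 with probe sets averaged, 0 with a trended robust prior, 108 with all 19 cultures, 0 with the date mark as a block, 0 within the shared mark, 0 adjusted outside chromosome 6 only and 0 to 3 with 1 line left out; where the alternative's construction does not show it, the cause was not tested. Gng2 was called without 1 line in 1 of 8 fits, Myh10 in 1 and Hdgfl3 in 0. Dusp5 reversed to -0.087 both with the mark as a block and within it. No other gene outside chromosome 6 taken by the naming rule changed sign under the alternatives run. Adjusting outside chromosome 6 only and the tissue value over all genes were added after seeing the data. No paired analysis was possible because the raised and other lines share no tumour number.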
